A study of Drosophila melanogaster with 12 samples.

Results

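The tetraspanin family of Drosophila was followed through 12 RNA-seq libraries of somatic cells sorted from the ovarian germline stem cell niche. Members were the genes whose symbol reads Tsp, a number and 1 or more capital letters, together with TM4SF and late bloomer (lbm). There were 36 such genes among the 14489 listed, and 35 of them had values, out of 13726 genes with values. Tsp66A had no value in any library, and all of its annotated exon bases are shared with CG42660 and CG42661. The family was picked because TM4SF was much higher after Smu1 RNAi, so that the Smu1 RNAi comparison is given here as a description and not as a test.

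The niche is made of terminal filament cells and cap cells (TFCs-CpCs) and of escort cells (ECs). TFCs-CpCs were the cells with high GFP from bab1-Gal4/UASp-tau::mGFP6 females of 1 week (1w) or 4 weeks (4w), a driver that is also weakly active in ECs. ECs of the same ages were sorted from females that carried lexAop-mCD8::GFP and ptc-LexA. In the RNAi experiment, the females of both groups carried 13xLexAop-mCD8::GFP, ptc-LexA, tub-Gal80ts and ptc-Gal4, and the Smu1 RNAi group also carried UAS-Smu1 RNAi, which lowers the splicing factor Smu1 in the cells where ptc-Gal4 is active. These females grew at 18 °C and spent their first 2 weeks as adults at 29 °C, which switches the RNAi on. Each of the 6 groups had 2 libraries, each from a pool of ovaries, and the RNA was amplified by PCR before sequencing.

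Tetraspanins are small proteins that cross the membrane 4 times and gather integrins, proteases and other receptors into patches of membrane. In Drosophila, Tsp3A, Tsp26A and Tsp86D belong to the group that escorts the protease Kuzbanian (kuz), which cuts Notch, and Tsp2A builds smooth septate junctions together with Ssk, Mesh and Hoka. lbm acts on motor axons when they form synapses, and Tsp42Ej, also known as sunglasses, is a lysosomal protein that takes part in the breakdown of rhodopsin in photoreceptors. For most of the other members no role is stated here.

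The libraries held between 12078227 and 52487930 counted reads, with 37580263 or more in each of the TFCs-CpCs libraries. The TFC and CpC marker en was at 14.0 and 20.3 cRPKM in 1w-old TFCs-CpCs, at 71.4 and 298 in 4w-old TFCs-CpCs and at no more than 3.19 in any EC library. cRPKM stands for corrected RPKM, in which reads are scaled to the mappable length of each transcript and to the library's mapped reads. Of 8 TFC and CpC markers listed, inv, LamC, dpp and bab2 were also higher in all TFCs-CpCs libraries than in ECs of either age. However, bab2 was at 40.26 and 42.24 cRPKM in 1w-old TFCs-CpCs and at 44.36 or more in control and Smu1 RNAi ECs. bab1 was higher in TFCs-CpCs than in ECs of the same age. Its levels in 1w-old TFCs-CpCs (7.69 and 9.19) overlapped with those in 4w-old ECs (9.52 and 7.32). hh went against the label at 1w, with 5.35 and 7.65 cRPKM in TFCs-CpCs and 118 and 91.5 in ECs. At 4w hh overlapped, with 25.3 and 105.86 in TFCs-CpCs and 89.71 and 82.96 in ECs. upd1 was at 2.48 cRPKM or less in all 12 libraries. Of 6 EC markers listed, ptc, Con and tj were higher in all EC libraries than in all TFCs-CpCs libraries. The other 3 did not follow the label: Wnt6 was between 29.1 and 474 cRPKM in TFCs-CpCs and at no more than 12.9 in ECs of either age, Wnt4 was at 307 and 1390 in 4w-old TFCs-CpCs against 371 and 257 in 4w-old ECs, and zfh1 was between 38.4 and 122 in TFCs-CpCs and between 34.4 and 53.9 in ECs of either age. Of 18 muscle genes listed, 16 were matched, and their summed level was 57308 and 54987 cRPKM in 1w-old TFCs-CpCs, 1888 and 2072 in 4w-old TFCs-CpCs, 1303 and 476 in 1w-old ECs, and between 55.5 and 161 in the other 6 libraries, and none of the 16 was at 0 in both libraries of a group. Markers of germline (7 genes matched), hemocytes (7), fat body (5), neurons (6) and gut (7) summed to no more than 189.8, 378.5, 12.6, 51.6 and 17.2 cRPKM in any library. The listed germline genes vas and nos were not matched. The hemocyte sum was 378.5 and 357.9 cRPKM in 1w-old TFCs-CpCs and 182.3 and 75.5 at 4w. Within it, Pxn went from 302 and 285 to 17.5 and 0.03, whereas crq went from 74.0 and 67.0 to 130 and 70.7. The 2 libraries of 4w-old TFCs-CpCs also differed from each other, with 104869 and 13014 summed cRPKM for 10 genes of late follicle cells and chorion. These genes summed to 9089 and 2607 in 1w-old TFCs-CpCs, 8458 and 7787 in 1w-old ECs, and 6772 and 4741 in 4w-old ECs. Smu1 itself was at 26.4 and 23.6 cRPKM in control ECs and at 4.17 and 5.51 in Smu1 RNAi ECs.

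The members are unevenly placed. Of the 36, 18 lie in the 42E cluster, which spans 73.4 kb of chromosome 2R (6992676 to 7066113 in BDGP6, the build called dm6), with 15 genes on the plus strand and 3 on the minus strand among 24 protein-coding genes. The other 3 members on 2R are Tsp42A, Tsp47F and TM4SF, and the rest of the family is spread over 2L (5 genes), 3L (4), 3R (3) and X (3). The cluster supplied most of the tetraspanin mRNA: its share of the summed cRPKM of the family was between 83.1% and 96.2% in 10 libraries, and 70.0% and 69.5% in Smu1 RNAi ECs.

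A single gene of the cluster dominated. Tsp42Ee had the highest level of any member in all 12 libraries and made up between 34.5% and 53.7% of the family sum. Its levels were 2623 and 2125 cRPKM in 1w-old TFCs-CpCs, 1256 and 1296 at 4w, 673 and 911 in 1w-old ECs, 975 and 1026 in 4w-old ECs, 662 and 639 in control ECs, and 598 and 596 in Smu1 RNAi ECs. It ranked between place 31 and place 216 among all genes of a library. Around it in the cluster, Tsp42Ea, Tsp42Ed and Tsp42Ef had means of at least 50 cRPKM in each of the 6 groups. Tsp42Eb, Tsp42Eq and Tsp42Er were at the other end, with group means of no more than 7.09, 0.455 and 1.40 cRPKM.

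**Figure D1:**
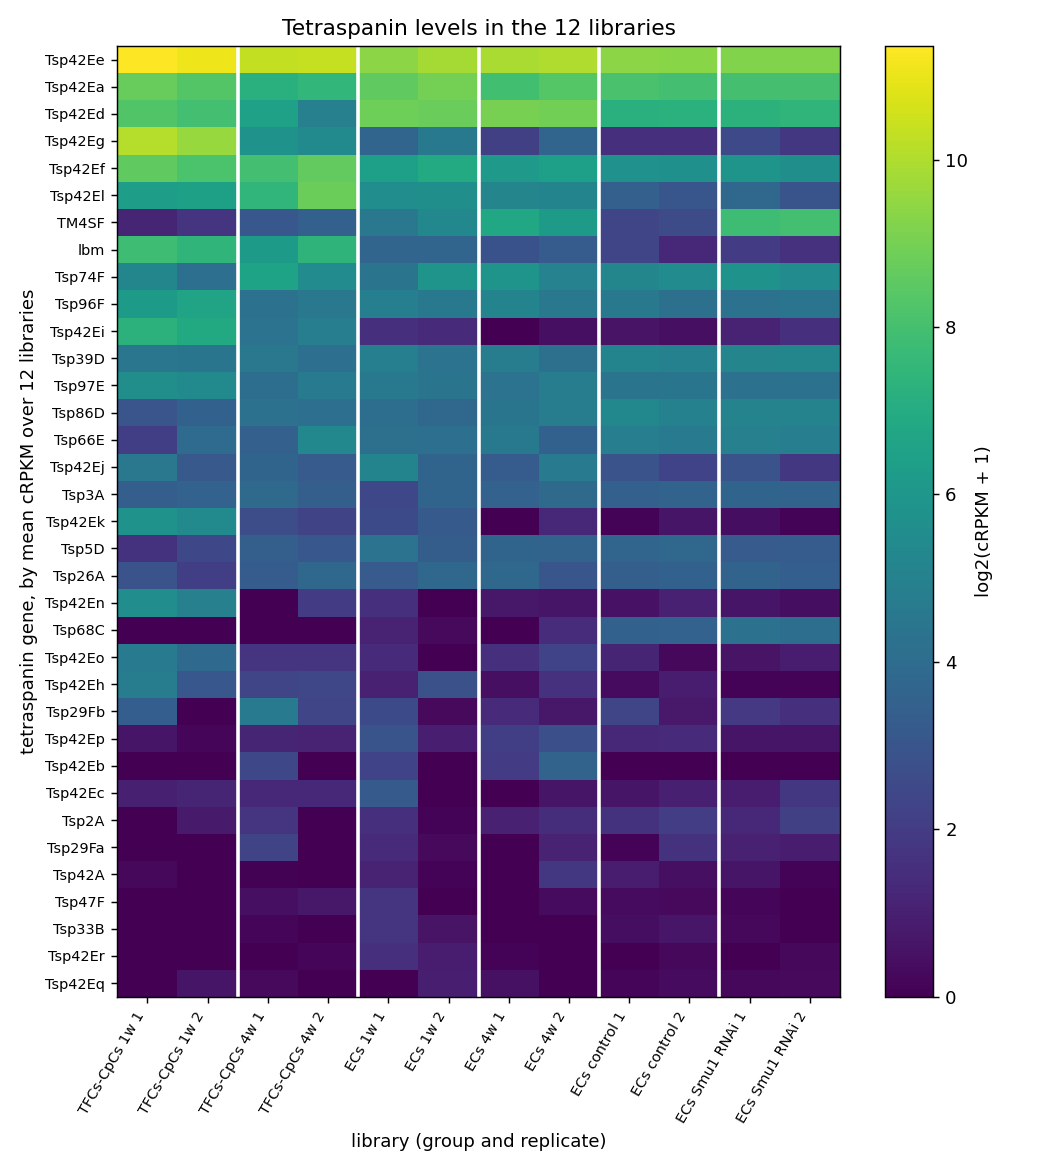
Levels of the 35 tetraspanins with values (rows, ordered by mean cRPKM) in the 12 libraries (columns, 2 for each of 6 groups), coloured by log2(cRPKM + 1). Tsp42Ee heads the family in all 12 libraries, and TM4SF is bright in the 2 Smu1 RNAi libraries at 229 and 248 cRPKM.

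TM4SF lies away from the cluster, on 2R from 23878197 to 23880860 on the plus strand. It was at 4.22 and 5.26 cRPKM in control ECs (95 and 106 counts) and at 229 and 248 cRPKM in Smu1 RNAi ECs (5087 and 4705 counts). The groups were far apart, and the ratio of the means was 50.3. On the TMM-scaled counts the log2 fold change was 5.69 with an SE of 0.14, the second highest of the 9933 genes tested in that comparison. TM4SF made up 0.302% and 0.395% of the family sum in control ECs and 14.5% and 15.8% in Smu1 RNAi ECs. These values chose the family and support nothing beyond their own size. The genes on either side were at similar levels in both genotypes: ken, upstream on the same strand, was at 40.2 and 28.9 cRPKM in control ECs and at 41.8 and 34.6 in Smu1 RNAi ECs. CG4882, downstream on the opposite strand and overlapping 1.81% of the exon bases of TM4SF, was at 46.1 and 48.4 cRPKM in control ECs and at 38.6 and 45.1 in Smu1 RNAi ECs. The summed late follicle cell and chorion genes were at 2516 and 2111 cRPKM in control ECs and at 4027 and 9249 in Smu1 RNAi ECs. Cp15 alone was at 7965 cRPKM in the library with 9249, and none of the 10 genes was called in this comparison. The part of these genes in the TM4SF values was not tested.

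Across the 6 groups TM4SF had a clear order of levels. It was lowest in 1w-old TFCs-CpCs (1.29 and 2.34 cRPKM), followed by control ECs, 4w-old TFCs-CpCs (7.60 and 10.2), 1w-old ECs (22.1 and 38.7), 4w-old ECs (107.6 and 71.4) and Smu1 RNAi ECs. No library overlapped with the next group in this order. Control ECs and the ECs of the ageing series, which differ in genotype, temperature and age, were thus 4.22 to 5.26 against 22.1 to 107.6 cRPKM, and what sets them apart cannot be told from these groups.

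**Figure D2:**
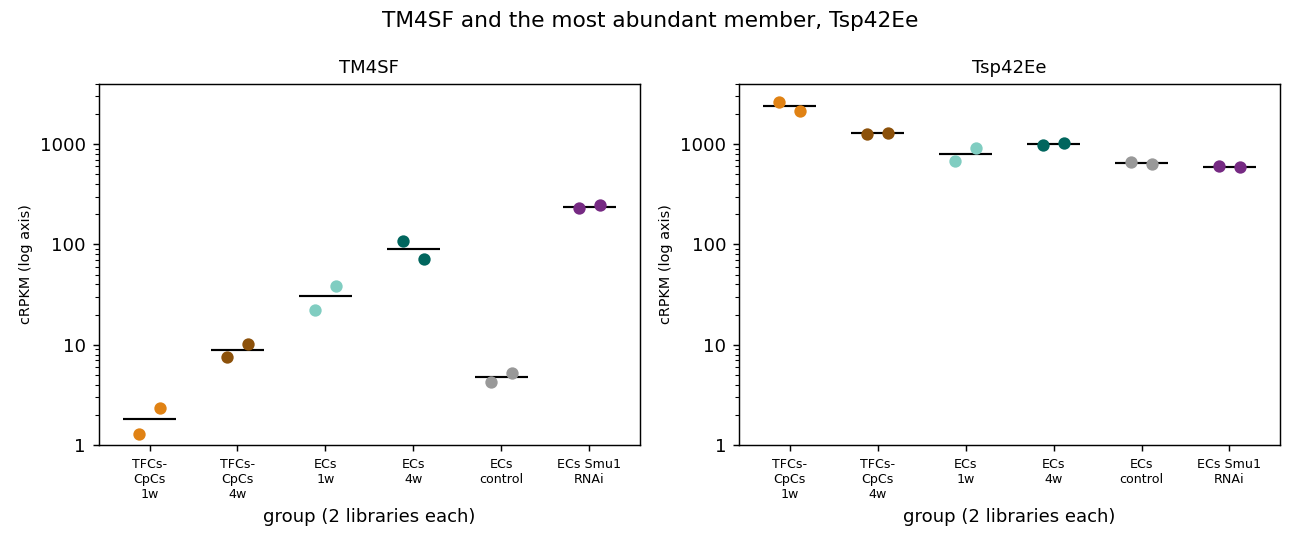
Level of TM4SF (left) and of Tsp42Ee (right) in cRPKM on a log axis in the 6 groups; each point is a library and each line a group mean. TM4SF runs from 1.29 to 248 cRPKM with no overlap between groups next to each other in order of level, while Tsp42Ee stays between 596 and 2623.

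With age, TM4SF was higher in both cell groups, although neither difference passed the thresholds used here. The paper lists TM4SF as up-regulated in aged ECs as well as after Smu1 RNAi. It also reports a change in TM4SF splicing after Smu1 RNAi. A gene was called when its absolute log2 fold change was at least 1 and its p-value from edgeR's quasi-likelihood test, adjusted with the Benjamini-Hochberg method over all genes tested, was under 0.1. In ECs the log2 fold change of TM4SF (4w over 1w) was 1.60 with an SE of 0.41 and an adjusted p of 0.307 in edgeR. It was called with DESeq2, with no filter on low counts, and without replicate 2 of 1w-old ECs, where the adjusted p of edgeR was 0.0463. In TFCs-CpCs the log2 fold change was 2.05 with an SE of 0.84 and an adjusted p of 0.300 in edgeR, and DESeq2 and the fit of all 12 libraries called it. The ageing effects of TM4SF in the 2 cell groups differed by 0.45 (SE 0.70, edgeR adjusted p = 0.844). Between the cell groups TM4SF was lower in TFCs-CpCs at 1w (log2 fold change of -3.72, SE 0.64, edgeR adjusted p = 0.0109) and at 4w (-3.22, SE 0.44, edgeR adjusted p = 0.0237). The call at 4w was lost without replicate 1 of 4w-old ECs, where the adjusted p was 0.160.

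In ageing TFCs-CpCs, 4 tetraspanins fell and no member rose past the thresholds. They were Tsp42Eg, Tsp42Ei and Tsp42Ek, all from the 42E cluster, and Tsp96F, which lies on chromosome 3R. The 4 called members were 13.8% of the 29 tested, against 5.18% of the 9249 genes tested in this comparison, where 3.92% were called lower and 1.25% higher.

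Tsp42Eg was the second most abundant tetraspanin of 1w-old TFCs-CpCs, at 1081 and 789 cRPKM, and was at 55.5 and 41.1 at 4w. Both 4w libraries lay far below both 1w libraries, a log2 fold change of -4.54 (SE 0.46, edgeR adjusted p = 0.00965). It was called under all 13 alternatives tried, including without each library in turn. Tsp42Ei stood at 155 and 117 cRPKM in the 1w libraries and at 18.9 and 27.6 at 4w (log2 fold change of -2.83, SE 0.40, edgeR adjusted p = 0.0248). Tsp42Ek stood at 55.7 and 40.6 cRPKM in young cells and at 5.51 and 3.99 at 4w (log2 fold change of -3.61, SE 0.53, edgeR adjusted p = 0.0271). Tsp96F stood at 70.8 and 98.2 cRPKM in young cells and at 18.3 and 22.7 at 4w (log2 fold change of -2.30, SE 0.35, edgeR adjusted p = 0.0310). The groups of these 3 genes did not overlap, but without replicate 1 of 1w-old TFCs-CpCs the adjusted p of edgeR rose to 0.139 for Tsp42Ei and to 0.170 for Tsp42Ek, and Tsp96F was no longer called either. Tsp96F also lost its call without replicate 2 of 1w-old TFCs-CpCs, where the adjusted p of edgeR was 0.170. In Tsp42Ei, 14.0% of the exon bases overlap CG33914 on the opposite strand, and Tsp42Ek shares 8.89% of its exon bases with its neighbour Tsp42Ej.

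The muscle genes moved with these 4 members. Of 15 muscle genes tested, 14 were called lower in 4w-old TFCs-CpCs, with a median log2 fold change of -5.87, and their part in the tetraspanin values was not tested. In these bulk samples, fewer cells of a type and less RNA per cell cannot be told apart.

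**Figure D3:**
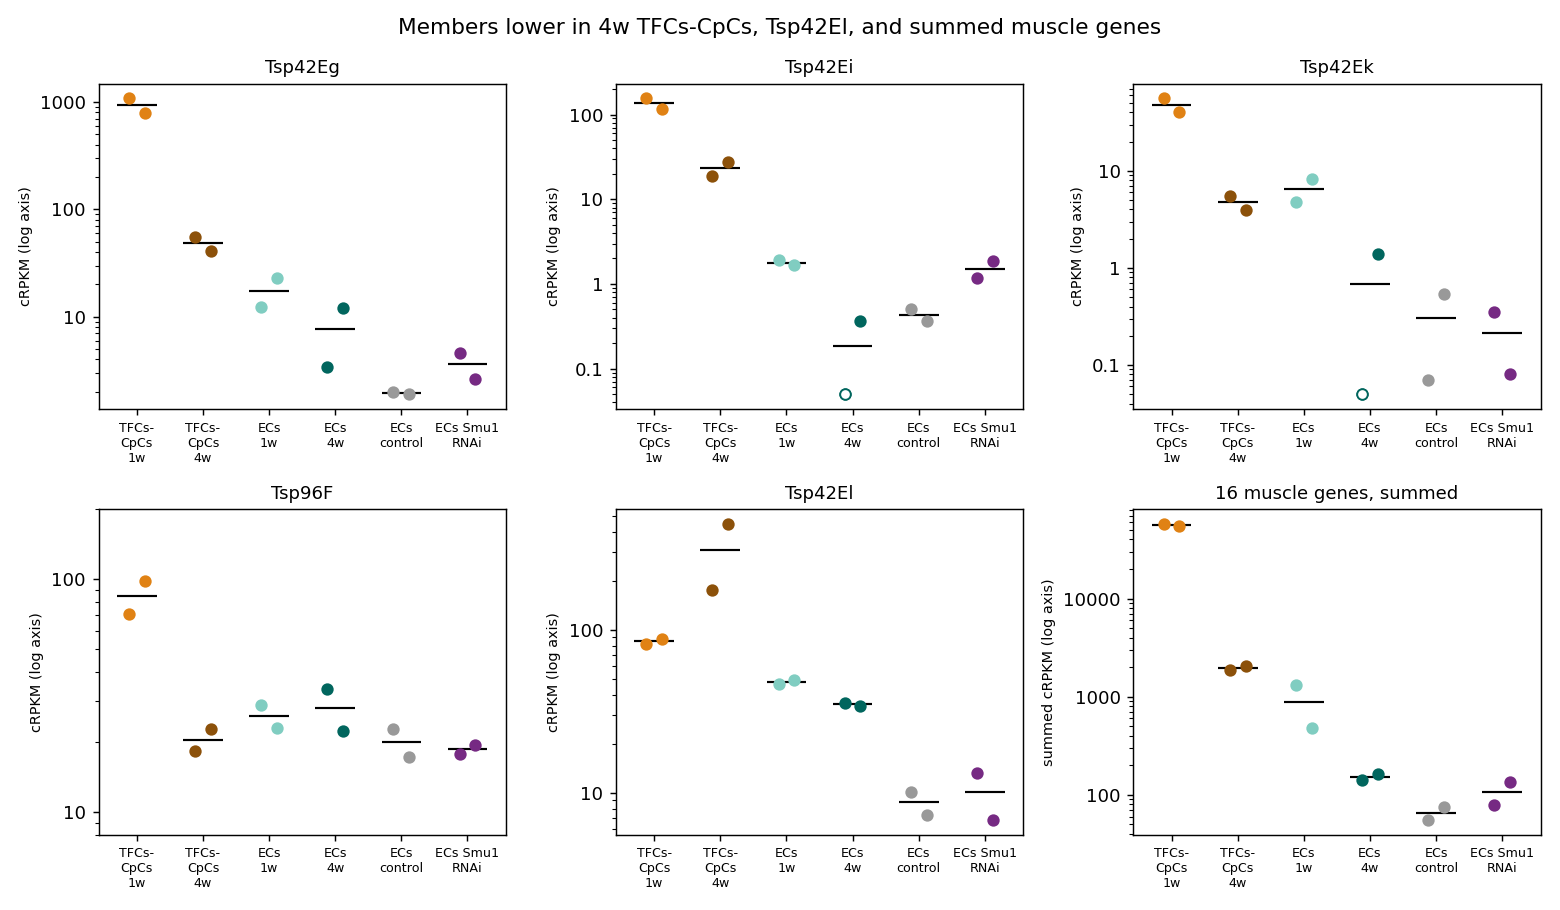
Levels of the 4 members called lower in 4w-old TFCs-CpCs, of Tsp42El, and the summed level of 16 muscle genes, in cRPKM on log axes; points are libraries, lines are group means, and open circles mark values of 0 drawn at the foot of the axis. Tsp42Eg goes from 1081 and 789 to 55.5 and 41.1 in TFCs-CpCs while the muscle sum goes from 57308 and 54987 to 1888 and 2072, and Tsp42El goes the other way.

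Most of the cluster leaned the same way in TFCs-CpCs, although only Tsp42Eg, Tsp42Ei and Tsp42Ek passed the test. Of its 16 genes tested, 13 had a negative log2 fold change, these 3 included, and the median was -1.41. Outside the cluster, 9 of the 13 members tested had a positive one, with a median of 1.12. Over all genes tested the median was 0.04. In the whole family the groups did not overlap for 12 members that were lower at 4w and for 9 that were higher, against 17.9% and 31.8% of all genes tested.

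The clearest exception inside the cluster was a neighbour of a gene that fell. Tsp42El lies between Tsp42Ek and lbm and measured 81.8 and 88.1 cRPKM at 1w, against 175 and 446 at 4w (log2 fold change of 1.59, SE 0.49, edgeR adjusted p = 0.185). Both 4w libraries were above both 1w libraries, and the gene was called higher by DESeq2, with no filter, in the fit of all 12 libraries and without replicate 1 of 4w-old TFCs-CpCs. The 4w library with 446 cRPKM is also the one with 298 cRPKM of en, against 175 and 71.4 in the other. lbm, on its other side, measured 223 and 173 cRPKM at 1w, against 71.9 and 164 at 4w (log2 fold change of -1.04, SE 0.48, edgeR adjusted p = 0.352). Tsp42Ef hardly differed, with 382 and 285 cRPKM at 1w and 245 and 395 at 4w, so that its groups overlapped.

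Tsp42Ed was among the members whose call depended on the fit. It was at 311 and 252 cRPKM in 1w-old TFCs-CpCs and at 90.4 and 29.7 at 4w, a log2 fold change of -2.48 (SE 0.63, edgeR adjusted p = 0.125). The groups were apart, but the 4w libraries differed from each other by a larger ratio than the replicates of this gene in the other 5 groups. For Tsp42Ea the levels were 420 and 318 at 1w and 145 and 185 at 4w (log2 fold change of -1.44, SE 0.37, edgeR adjusted p = 0.125). Tsp42Ee, the leading gene, had a log2 fold change of -1.17 (SE 0.39, edgeR adjusted p = 0.208). Of the 13 alternatives, 9 called Tsp42Ed lower, 5 called Tsp42Ea and 4 called Tsp42Ee, DESeq2 and the fit of all 12 libraries among them each time.

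Towards the far end of the cluster, Tsp42En and Tsp42Eo were also low in the 4w libraries. Tsp42En had 45.8 and 29.6 cRPKM at 1w and 0 and 2.98 at 4w (0 and 103 counts), and Tsp42Eo had 25.6 and 13.7 at 1w and 2.39 and 2.29 at 4w. Neither passed the test (edgeR adjusted p of 0.267 and 0.120). All exon bases of Tsp42Eo lie within Tsp42Ep on the opposite strand, and since the use of strand in counting is not stated, reads of the pair may not be told apart. Tsp47F, outside the cluster, had no count in either 1w library but 23 and 28 counts at 4w, which makes its mean CPM at least 9.53-fold higher at 4w when a count of 0 is taken to allow 3 counts in each library, and the edgeR adjusted p was 0.268.

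**Figure D4:**
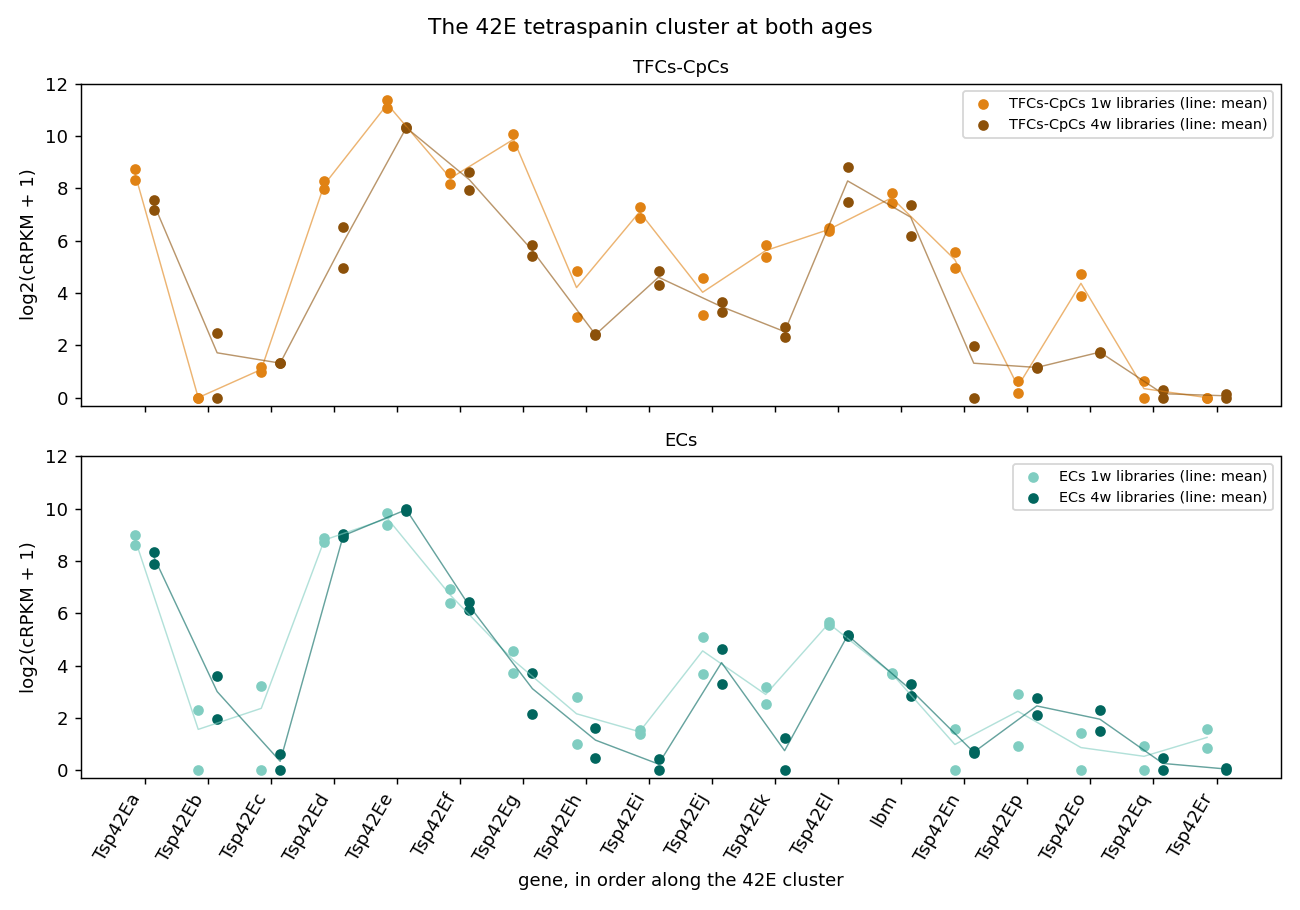
The 18 members of the 42E cluster in their order along the chromosome (x axis) against log2(cRPKM + 1) in TFCs-CpCs (top) and ECs (bottom); points are libraries and lines join group means at 1w and 4w. In TFCs-CpCs the 4w points sit below the 1w points for Tsp42Eg, Tsp42Ei and Tsp42Ek and above them for Tsp42El, while in ECs the 2 ages run close together around Tsp42Ed and Tsp42Ee.

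In ageing ECs no tetraspanin was called. Of 30 members tested with edgeR, 0 passed the thresholds and 1, TM4SF, had an unadjusted p under 0.05, against 0.103% of the 10675 genes tested that were called (0.0937% lower and 0.00937% higher) and 570 with an unadjusted p under 0.05. DESeq2 called 1 member, again TM4SF, and limma called 0. The median log2 fold change of the members was -0.06, and that of all genes tested was -0.03. The ages did not overlap for 7 members that were lower at 4w and 5 that were higher, against 20.6% and 14.3% of all genes tested.

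Among the abundant members, Tsp42Ed measured 466 and 427 cRPKM at 1w, against 518 and 484 at 4w, a log2 fold change of 0.24 (SE 0.28, edgeR adjusted p = 0.999). Tsp42Ea measured 387 and 512 cRPKM at 1w, against 239 and 323 at 4w (log2 fold change of -0.62, SE 0.30, edgeR adjusted p = 0.945, unadjusted p = 0.0558). For both genes the 2 ages did not overlap, and neither difference passed the test. Of the 4 members that fell in TFCs-CpCs, Tsp96F measured 28.8 and 23.0 cRPKM in 1w-old ECs, against 33.8 and 22.4 at 4w, and its groups overlapped. Tsp42Eg (12.2 and 22.8 at 1w, 3.41 and 12.1 at 4w), Tsp42Ei (1.92 and 1.66, then 0 and 0.37) and Tsp42Ek (4.78 and 8.20, then 0 and 1.38) were scarce in ECs and did not overlap between ages, each with an edgeR adjusted p of 0.999. Of the muscle genes, 5 of 16 tested were called lower in 4w-old ECs.

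**Figure D5:**
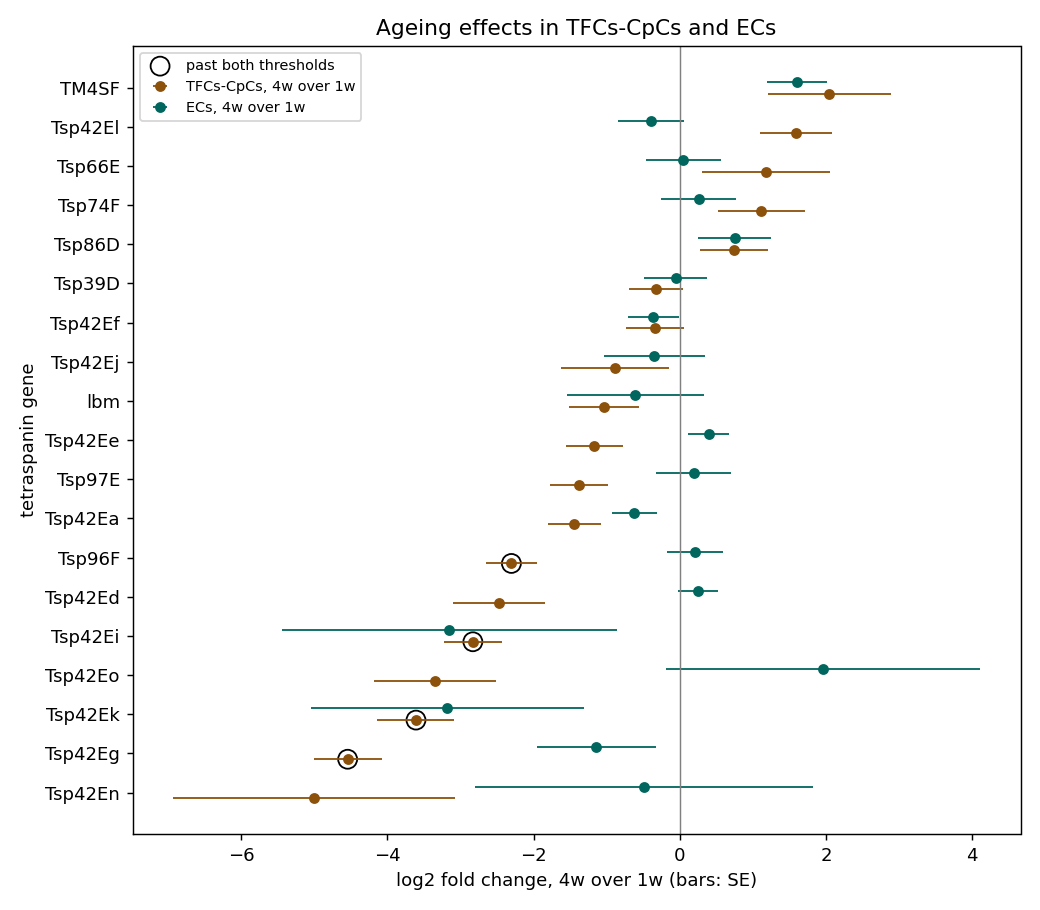
Ageing effect (log2 fold change, 4w over 1w, with its SE) of the 19 members named by the rule that were tested in TFCs-CpCs, apart from Tsp47F, in TFCs-CpCs (brown) and in ECs (green); circles mark members past both thresholds. Only Tsp42Eg, Tsp42Ei, Tsp42Ek and Tsp96F in TFCs-CpCs are circled, and TM4SF lies at 2.05 and 1.60.

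The difference between the ageing effects was tested directly, as the interaction of age and cell group over 8 libraries. It was called for 3 of 33 members, all lower in TFCs-CpCs: Tsp96F (log2 difference of -2.50, SE 0.51, edgeR adjusted p = 0.0438), Tsp42Eg (-3.39, SE 0.80, edgeR adjusted p = 0.0725) and Tsp42Ed (-2.71, SE 0.68, edgeR adjusted p = 0.0882). This was 9.09% of the members, against 2.47% of the 11452 genes tested (1.51% lower and 0.961% higher). For Tsp42Ei the difference was 0.34 (SE 0.96) and for Tsp42Ek -0.41 (SE 1.55), so that a fall of these 2 genes particular to TFCs-CpCs was not shown. Of 16 muscle genes, 8 were also called in this interaction, all lower. The calls were not firm: the count was 0 without either library of 1w-old ECs and 1 without either library of 4w-old ECs or either library of 1w-old TFCs-CpCs, where between 0.616% and 1.7% of all genes were called.

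The cell groups differed most at 1w. Of 29 members tested, 13 were called, 11 of them higher in TFCs-CpCs and 2 higher in ECs, which is 44.8% of the members against 31.2% of the 10173 genes tested (14% higher and 17.2% lower). The libraries did not overlap for 12 members that were higher in TFCs-CpCs and 8 that were lower, against 22.6% and 45% of all genes tested. The 2 groups also differ in driver, GFP line, number of sorted cells and depth, which cannot be told apart from cell identity. Of 16 muscle genes tested, 15 were called higher in 1w-old TFCs-CpCs, with a median log2 difference of 6.81, and their part in the tetraspanin values was not tested.

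Of the 11 members higher in TFCs-CpCs at 1w, 9 belong to the 42E cluster, which held 17 of the 29 members tested. The cluster also held 1 of the 2 members called lower. Tsp42Ei was 155 and 117 cRPKM in TFCs-CpCs against 1.92 and 1.66 in ECs, a log2 difference of 6.62 (SE 0.40, edgeR adjusted p = 0.000411). Tsp42Eg, at 1081 and 789 against 12.2 and 22.8, differed by 6.09 (SE 0.48, edgeR adjusted p = 0.000807). lbm, at 223 and 173 against 12.2 and 11.9, differed by 4.41 (SE 0.33, edgeR adjusted p = 0.000686). No EC library came near the TFCs-CpCs libraries for these 3 genes, and the calls held under all 13 alternatives tried. Tsp42Ee, at 2623 and 2125 against 673 and 911 cRPKM, was called as well, with a log2 difference of 1.94 (SE 0.31, edgeR adjusted p = 0.00850). Tsp42En, Tsp42Eo, Tsp42Ek, Tsp42Ef and Tsp42El of the cluster and Tsp96F and Tsp97E outside it were also called higher, with log2 differences between 1.19 and 5.71. Of these, Tsp42El, Tsp42Eo and Tsp97E lost their calls without replicate 1 of 1w-old TFCs-CpCs, and Tsp42El also without replicate 1 of 1w-old ECs and in both limma fits.

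The members higher in 1w-old ECs were TM4SF and Tsp42Er. Tsp42Er had 0 counts in both TFCs-CpCs libraries and 19 and 10 counts in ECs, which makes its mean CPM at least 18.0-fold lower in TFCs-CpCs when 3 counts are allowed in each library. It passed the filter only through its EC counts, so its call (edgeR adjusted p = 0.0676) is not read as a result. DESeq2, the fit with no filter, the cut at an adjusted p under 0.05 and the replicate block did not call it. The abundant cluster genes Tsp42Ea (420 and 318 against 387 and 512 cRPKM, log2 difference of 0.08, SE 0.30) and Tsp42Ed (311 and 252 against 466 and 427, log2 difference of -0.29, SE 0.25) were not called, and Tsp42Ea overlapped between the groups. Tsp42Ej, which lies between Tsp42Ei and Tsp42Ek, overlapped too, with a log2 difference of -0.16 (SE 0.74).

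At 4w fewer members separated the cell groups. Of 29 tested, 6 were called, which is 20.7% against 6.12% of the 9908 genes tested (3.74% higher and 2.37% lower in TFCs-CpCs). The libraries did not overlap for 11 members that were higher in TFCs-CpCs and 6 that were lower, against 24.2% and 32% of all genes tested. Higher in TFCs-CpCs were lbm (71.9 and 164 against 6.20 and 8.79 cRPKM, log2 difference of 4.08, SE 0.56, edgeR adjusted p = 0.0237), Tsp42El (175 and 446 against 35.4 and 34.3, 3.25, SE 0.53, edgeR adjusted p = 0.0341) and Tsp42Ef (245 and 395 against 69.5 and 84.8, 2.16, SE 0.41, edgeR adjusted p = 0.0505). Tsp42Ei was also higher, at 18.9 and 27.6 against 0 and 0.37 cRPKM (log2 difference of 7.05, SE 1.41, edgeR adjusted p = 0.0574). It had 0 and 7 counts in the EC libraries. Since it passed the filter only through its TFCs-CpCs counts, this call is not read as a result. Lower in TFCs-CpCs were TM4SF and Tsp42Ed, the latter at 90.4 and 29.7 against 518 and 484 cRPKM (log2 difference of -2.93, SE 0.60, edgeR adjusted p = 0.0633). Without replicate 1 of 4w-old ECs none of the members and 0 of the 9225 genes tested with edgeR were called, and without replicate 2 of 4w-old ECs 2 members and 1.17% of all genes were. Here 11 of 15 muscle genes tested were called higher in TFCs-CpCs, with a median log2 difference of 3.07, and their part was not tested.

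lbm, Tsp42Ei, Tsp42Ef and Tsp42El were thus called higher in TFCs-CpCs at both ages, although the 4w call of Tsp42Ei is not read as a result. For each of them all 4 TFCs-CpCs libraries were above all 4 EC libraries of the ageing series. The 1w calls of lbm, Tsp42Ei and Tsp42Ef held under all 13 alternatives, that of Tsp42El was lost under 4 of them, and all 4 genes lost their 4w calls without replicate 1 of 4w-old ECs.

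The members tied to Kuzbanian were of moderate level. Tsp86D was at 7.03 and 10.4 cRPKM in 1w-old TFCs-CpCs, 17.8 and 16.9 at 4w, 16.1 and 13.4 in 1w-old ECs, 20.1 and 26.8 in 4w-old ECs, and between 31.2 and 38.0 in control and Smu1 RNAi ECs. Tsp26A lay between 3.34 and 13.4 cRPKM and Tsp3A between 4.44 and 14.2 over the 12 libraries. None of the 3 was called in any comparison. Of the 6 genes listed for Kuzbanian and Notch, 4 were matched, and kuz itself was lower in TFCs-CpCs. It stood at 5.95 and 6.58 cRPKM at 1w and 15.8 and 17.3 at 4w, against 101.4 and 66.8 in 1w-old ECs and 87.3 and 75.3 in 4w-old ECs. The log2 difference was -3.37 at 1w (edgeR adjusted p = 0.00100) and -2.18 at 4w (edgeR adjusted p = 0.0382). N, the receptor Notch, was also lower in TFCs-CpCs at 1w (3.98 and 6.98 against 33.3 and 23.2 cRPKM, edgeR adjusted p = 0.0114), and Tace and Ser were not called.

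Of the other genes listed as partners, 4 of 7 integrin genes were matched. if and mys, which encode an alpha and a beta subunit, were higher in 1w-old TFCs-CpCs (log2 differences of 3.68 and 1.03, edgeR adjusted p of 0.00114 and 0.0253), and both take part in the attachment of muscle. Itgbn, another beta subunit, was at 0.01 and 0.01 cRPKM in 1w-old TFCs-CpCs, 4.79 and 2.78 at 4w, and 5.19 and 1.57 in 1w-old ECs. It was called higher with age in TFCs-CpCs (edgeR adjusted p = 0.0369) and lower in TFCs-CpCs than in ECs at 1w (edgeR adjusted p = 0.0218). Tsp2A stayed at 3.51 cRPKM or less in all libraries, and its partners in the smooth septate junction were as scarce: Ssk reached 9.76 cRPKM, mesh 0.76 and hoka 0.55. Ssk was called lower in 1w-old TFCs-CpCs, where it was at 0, than in ECs (edgeR adjusted p = 0.0481). Ssk and Itgbn had no more than 3 counts in each 1w-old TFCs-CpCs library. They passed the filter only through the groups where they were higher, so these calls are not read as a result. In ageing ECs none of the 10 partner genes tested with edgeR was called (4 of integrins, 4 of Kuzbanian and Notch, and 2 of the junction).

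The better expressed members outside the cluster varied to different degrees. Tsp39D lay between 17.0 and 36.0 cRPKM over the 12 libraries and Tsp97E between 16.02 and 47.4, with its highest values in 1w-old TFCs-CpCs (47.4 and 41.0). Tsp96F lay between 17.3 and 98.2, Tsp74F between 17.0 and 93.8, Tsp66E between 3.26 and 38.3, and Tsp5D between 2.13 and 19.2. Replicates of these genes were often apart: in 4w-old TFCs-CpCs, Tsp74F was at 93.8 and 43.4 cRPKM and Tsp66E at 10.1 and 38.3. The lysosomal Tsp42Ej, a member of the cluster, was likewise uneven, with 33.7 and 11.8 cRPKM in 1w-old ECs and 8.96 and 23.9 in 4w-old ECs.

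In the Smu1 RNAi comparison, TM4SF was the only 1 of 25 members tested past the thresholds, or 4% of them, against 1.11% of the 9933 genes tested (0.735% higher), and nothing is read from this count because the family was chosen on it. The genotypes did not overlap for 8 members that were higher in Smu1 RNAi ECs and 4 that were lower, against 17% and 24.2% of all genes tested. Tsp68C, named here after its values were seen, was among the 8. It had 10.4 and 10.7 cRPKM in control ECs and 18.5 and 16.1 in Smu1 RNAi ECs, a log2 fold change of 0.75. The scarce Tsp42Ei (1.80) and Tsp42Eg (0.93), also among the 8, had larger log2 fold changes. Tsp68C was at 1.72 cRPKM or less in the 8 libraries of the ageing series. The abundant members were close in both genotypes: Tsp42Ee was at 662 and 639 against 598 and 596 cRPKM, Tsp42Ed at 147 and 151 against 156 and 172 and Tsp42Ea at 272 and 246 against 258 and 256. Tsp42Ee and Tsp42Ed did not overlap between the genotypes. Without TM4SF, the members outside the cluster summed to 230 and 220 cRPKM in control ECs and to 244 and 232 in Smu1 RNAi ECs.

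The scarce members carried little information. In 1w-old TFCs-CpCs 6 of the 35 members had no more than 3 counts in both libraries, and in the other groups this held for 3, 1, 2, 2 and 6 members (4w-old TFCs-CpCs, 1w-old and 4w-old ECs, control and Smu1 RNAi ECs). Tsp29Fa, Tsp33B, Tsp42A, Tsp42Eb and Tsp42Eq were among these in at least 1 group. Where both groups of a comparison were at such counts, a difference was not detectable at this depth.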

How the data were processed

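With vast-tools and the dm6 build, the authors made 2 values for each gene in each library and deposited them: read counts, which are not normalized, and corrected RPKM (cRPKM), which scales reads to mappable transcript length and to the library's mapped reads. Libraries were strand-specific, and whether strand was used in counting is not stated. Coordinates and shared exon bases came from the BDGP6 annotation of Ensembl release 115, the same build as dm6.

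edgeR 4.0.16 (R 4.3.3) was run separately for each comparison on the libraries it concerns, with TMM scaling and the quasi-likelihood test, after removal of genes that did not reach 10 counts in 2 or more libraries. The Benjamini-Hochberg adjustment covered all genes tested. Calls needed a log2 fold change of 1 or more in either direction together with an adjusted p below 0.1. The SE is the absolute log2 fold change over the square root of F. Libraries held 12078227 to 52487930 counted reads. A library without a count was taken to allow up to 3, which covers counting error only. Replicates are 2 sorts per group, and p-values measure the spread between these.

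The alternatives were DESeq2 1.42.0, median-of-ratios size factors, no filter, a filter at a mean of 5 cRPKM, an adjusted p below 0.05, a joint fit of the 12 libraries, a replicate block, limma 3.58.1 on log2(cRPKM + 1) or log2(cRPKM + 0.1), and omission of each library. Females of both ages were split from 1 batch per replicate. That equal replicate numbers mark these batches is not stated, so pairing the ECs by number is an assumption. For TFCs-CpCs the sources number the libraries differently, so the pairs are not known. Deviations of same-numbered libraries correlated at -0.04 (TFCs-CpCs), -0.04 (ECs) and 0.22 (RNAi experiment), and the block is an alternative. The fits were tested on simulated data.

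The members and gene lists were chosen with earlier results of these data known. Named members are TM4SF, any member called, any with a mean of 20 cRPKM or more in 1 group, and any with at most 3 counts in both libraries of 1 group and 10 or more in both of the other. Partner genes are named where called or to complete a list. Python 3.11.15, pandas 2.3.3, numpy 2.4.6 and matplotlib 3.10.9 made the tables and figures.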

Additional observations from a re-analysis of the deposited data

Results flagged for a closer look

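The ageing effect differed between TFCs-CpCs and ECs for 3 members by the interaction test. The log2 difference (TFCs-CpCs minus ECs) was -2.50 for Tsp96F (edgeR adjusted p = 0.0438), -3.39 for Tsp42Eg (edgeR adjusted p = 0.0725) and -2.71 for Tsp42Ed (edgeR adjusted p = 0.0882). Over the alternatives the adjusted p ranged from 0.00194 to 0.183 for Tsp96F, from 0.000764 to 0.278 for Tsp42Eg and from 0.00510 to 0.288 for Tsp42Ed. The direction was the same in all 17 alternatives for each of the 3 genes. Groups of 2 libraries are too small to test for a single library that stands apart.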

How the results depend on the processing

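With 2 libraries per group, counts of called members moved with the fit, and so did the share of all genes called. For ageing TFCs-CpCs the count of 4 became 12 with DESeq2 (2 higher, 10 lower; 15.4% of all genes, against 5.18%), 10 with no filter (9.56%), 10 in the fit of all 12 libraries (14%) and 7 with limma on log2(cRPKM + 1) (7.74%), and all 4 genes were among them each time; leaving out 1 library gave 1 to 10 (1.94% to 14.4%), the 1 being without replicate 1 of 1w-old TFCs-CpCs. For ageing ECs the count of 0 became 1 with DESeq2 (1.06%) and 1 with no filter (0.471%), and 0 to 1 on leaving out 1 library. Between the cell groups at 1w it was 11 at an adjusted p under 0.05 (19.5%) and 17 in the fit of all 12 libraries (40.1%). At 4w it was 3 at an adjusted p under 0.05 (2.26%). At both ages the calls also moved on leaving out 1 library. For the interaction the count of 3 became 6 with DESeq2 (7.93%), 1 at an adjusted p under 0.05 (1.14%), 5 in the fit of all 12 libraries (7.85%) and 0 with limma on log2(cRPKM + 0.1) (1.04%), and 0 to 4 on leaving out 1 library. The Smu1 RNAi count stayed at 1 under all 13 alternatives. That member is TM4SF, whose rise in this comparison chose the family, so nothing is read from its staying. With the replicate number as a block the counts were 5 (7.03% of all genes), 0 (0.169%), 12 (26.1%), 7 (6.96%), 3 (2.44%) and 1 (2.61%) in the order of the comparisons above. Among named members outside the RNAi comparison the block ended the call of Tsp42Er at 1w (adjusted p = 0.314, edgeR). It added Tsp42Ed in ageing TFCs-CpCs (0.0199) and Tsp42Eg between the cell groups at 4w (0.0646), and it changed no other call. Replicate numbers are not known to pair libraries within TFCs-CpCs or between the cell groups, so these changes are not read as effects of a shared batch. Of 26 called results of named members, 10 were called under each alternative and 16 were lost under at least 1; no called result changed sign. The median log2 fold change of all genes moved from 0.04 to 0.22 in ageing TFCs-CpCs and from -0.19 to -0.43 between the cell groups at 1w when limma was run on log2(cRPKM + 1), and to 0.15 and -0.63 with no filter. The cause of these shifts was not tested. Depth limits the members with few counts.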
